A study of Rattus norvegicus with 8 samples.

Results

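The 8 genes described here mark the medium spiny projection neurons of the striatum: Drd1, Tac1, Drd2, Adora2a, Penk, Ppp1r1b, Rgs9 and Pde10a. They were chosen by their NCBI GeneIDs from the 22601 genes measured in each library, and all 8 were found and passed the filter on low values, a mean of at least 0.1 FPKM over the libraries, which 15593 genes passed. FPKM counts sequenced fragments by length of the transcript and by depth of the library. Levels are compared on that scale with no further scaling in the main setting, although the median FPKM ran from 1.48 in PTZ-2 to 2.08 in PTZ-3. Hippocampal RNA of 8 wild type Wistar rats of 180 to 220 g was sequenced, with 1 library per rat. The 3 rats of the Con. group received vehicle, the 3 rats of the PTZ group received pentylenetetrazole (PTZ) and vehicle, and the 2 rats of the Q808 group received PTZ and the anticonvulsant compound Q808. PTZ blocks the GABA-A receptor, the main inhibitory receptor of the brain, and a low dose given again and again kindles the animal, so that the same dose comes to produce seizures. Kindling is a chemical model of epilepsy, and both the PTZ and the Q808 groups carry it, so only the Con. group was free of PTZ. By the study's account, both of those groups were given a further low PTZ dose after treatment ended. Tissue was taken after the seizure test that followed.

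Projection neurons make up most of the neurons of the striatum and use GABA as their transmitter. Those of the direct pathway project to the output nuclei of the basal ganglia and carry the dopamine D1 receptor, while those of the indirect pathway project to the external globus pallidus and carry the dopamine D2 receptor and the adenosine A(2A) receptor. In both, dopamine acts through cyclic AMP, on which phosphodiesterases, RGS proteins and the phosphoprotein DARPP-32 bear. The hippocampus holds no such neurons, though some of these genes, among them Drd1, Penk and Ppp1r1b, are also transcribed in hippocampal cells at lower levels.

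The libraries fell into 2 sets that crossed the treatment groups. Con.-3, PTZ-3 and Q808-1 are called striatum-rich below. That division was made earlier from the levels of genes of this kind in these same libraries, so the gap between the sets is given as a description with no test. Each group holds 1 striatum-rich library, and the division is therefore not one of treatment. The depth of the libraries relative to Con.-1, read from the steps between low FPKM values, lay between 0.854 in PTZ-3 and 1.19 in Con.-2. Read numbers given below are the smallest whole numbers in the ratio of the depth-scaled FPKM of a gene, and intervals on them cover counting error only. The labelled tissue was checked against marker genes. Neurod6, a transcription factor of hippocampal pyramidal cells, was at 60.8 to 130.02 FPKM in the other 5 libraries and at 7.29 to 24.7 FPKM in the striatum-rich ones, and C1ql2, a gene of dentate granule cells, was at 50.6 to 96.7 FPKM against 3.23 to 5.09 FPKM. Not all such markers fell. Of 7 tested pyramidal cell genes, 5 were lower and 1 higher without overlap, and of 5 tested dentate granule cell genes 3 were lower. Of all tested genes 9.59% were lower and 15.2% higher in this way. In a sample of whole tissue, fewer cells of a type and less RNA per cell cannot be told apart.

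Drd1 (GeneID 24316) encodes the D1 receptor, which raises cyclic AMP. Its level was 1.52, 3.997 and 89.5 FPKM in Con.-1, Con.-2 and Con.-3, 2.25, 2.63 and 33.7 FPKM in PTZ-1, PTZ-2 and PTZ-3, and 23.9 and 1.96 FPKM in Q808-1 and Q808-2. The 3 striatum-rich libraries were all above the other 5, and the lowest of them was 5.97 times the highest of the rest. Its group means were 31.7 ± 50.1 FPKM in Con. (SD, n = 3), 12.9 ± 18.1 FPKM in PTZ (SD, n = 3) and 12.9 ± 15.5 FPKM in Q808 (SD, n = 2), so that the spread within each group was larger than its mean. Drd2 (GeneID 24318) encodes the D2 receptor, which lowers cyclic AMP. Its level was 1.25, 2.39 and 95.9 FPKM in the Con. libraries in the order of their numbers, 1.23, 1.43 and 39.5 FPKM in the PTZ libraries, and 46.9 and 1.06 FPKM in the Q808 libraries. The same 3 libraries were high, here by 16.5 times between the lowest of the 3 and the highest of the 5.

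The promoters of both receptor genes are shown because these receptors define the pathways and moved together between libraries. Each run holds 300 bases from RefSeq on the GRCr8 assembly in the direction of the gene, most of them upstream of the start of transcription. Capitals mark matches, on either strand, to the CRE TGACGTCA, which binds the cyclic AMP response factor CREB, to its shorter form TGACG, which is contained in it, to the GC box GGGCGG or to TATAAA. Positions are counted from the start site, with 1 for its first base and -1 for the base before it.
Drd1, chr17:10546354-10546653, plus strand: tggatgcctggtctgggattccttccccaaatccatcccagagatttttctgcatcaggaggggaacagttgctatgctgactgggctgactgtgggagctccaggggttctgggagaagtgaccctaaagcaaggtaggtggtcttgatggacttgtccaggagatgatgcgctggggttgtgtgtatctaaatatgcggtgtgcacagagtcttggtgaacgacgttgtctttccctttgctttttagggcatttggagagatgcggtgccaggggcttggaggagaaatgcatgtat
Drd2, chr8:58605153-58605452, plus strand: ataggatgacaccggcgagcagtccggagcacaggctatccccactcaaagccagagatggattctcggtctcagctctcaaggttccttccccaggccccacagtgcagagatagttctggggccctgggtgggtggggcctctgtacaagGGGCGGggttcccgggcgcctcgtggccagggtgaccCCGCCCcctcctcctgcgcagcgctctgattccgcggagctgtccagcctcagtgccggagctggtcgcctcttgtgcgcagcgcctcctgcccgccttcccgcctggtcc
The Drd1 window held no match to any of the 4 motifs. The Drd2 window held 2 GC boxes, at -98 and -61, which read CCGCCC where the match lies on the other strand. Of 33469 rat promoter windows of the same length, 33.1% held a GC box, 21.2% held TGACG, 14.2% held TATAAA and 1.83% held the whole CRE. A match is a description of the letters and not a site of binding.

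Adora2a (GeneID 25369) encodes the A(2A) receptor, which raises cyclic AMP in neurons of the indirect pathway. It was the least abundant of the 8 genes in 6 of the 8 libraries, all but PTZ-3 and Q808-1, with 0.706, 1.62 and 56.3 FPKM in the Con. libraries, 0.672, 0.655 and 26.0 FPKM in the PTZ libraries, and 28.7 and 0.610 FPKM in the Q808 libraries. In 4 of the 5 libraries outside the striatum-rich set it thus lay under 1 FPKM, on 60 to 69 reads, and the exception was Con.-2 with 182 reads. The 2 receptors of indirect-pathway neurons kept close to each other, and Drd2 was between 1.48 and 2.18 times Adora2a in all 8 libraries.

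The neuropeptide genes were more abundant than the receptors. Tac1 (GeneID 24806), the precursor of substance P in direct-pathway neurons, was at 6.73, 10.9 and 217 FPKM in the Con. libraries, at 5.65, 6.55 and 110.5 FPKM in the PTZ libraries, and at 105 and 9.37 FPKM in the Q808 libraries. Penk (GeneID 29237), the precursor of the enkephalins in indirect-pathway neurons, was at 14.7, 33.6 and 798 FPKM in the Con. libraries, at 30.8, 52.9 and 407 FPKM in the PTZ libraries, and at 283 and 21.6 FPKM in the Q808 libraries. Penk varied 3.599-fold among the 5 libraries outside the striatum-rich set, more than any other of the genes, and it was the only one of the 8 whose highest level among those 5 was not in Con.-2. That level stood in PTZ-2, on 1367 reads against 342 reads in Con.-1.

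Of the signalling genes that both kinds of neuron share, Ppp1r1b (GeneID 360616) encodes DARPP-32, an inhibitor of protein phosphatase 1 once protein kinase A has phosphorylated it. It was at 42.1, 47.7 and 755 FPKM in the Con. libraries, at 40.02, 37.4 and 405 FPKM in the PTZ libraries, and at 386 and 40.1 FPKM in the Q808 libraries. Outside the striatum-rich set it held the narrowest range of the 8 genes, 1.28-fold from the lowest to the highest. Rgs9 (GeneID 29481) encodes a regulator of G protein signalling that speeds the end of the signal of dopamine receptors. It was at 4.06, 6.15 and 207 FPKM in the Con. libraries, at 3.16, 3.92 and 107 FPKM in the PTZ libraries, and at 137 and 5.65 FPKM in the Q808 libraries. Its lowest striatum-rich level was 17.4 times its highest level elsewhere, more than for any other of the 8 genes. Pde10a (GeneID 63885) encodes the phosphodiesterase of projection neurons that breaks down cyclic AMP and cyclic GMP. It was at 7.04, 12.6 and 155 FPKM in the Con. libraries, at 6.95, 7.96 and 24.9 FPKM in the PTZ libraries, and at 45.7 and 9.28 FPKM in the Q808 libraries. It was the gene with the smallest distance, since its level in PTZ-3 was only 1.98 times that in Con.-2.

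**Figure D1:**
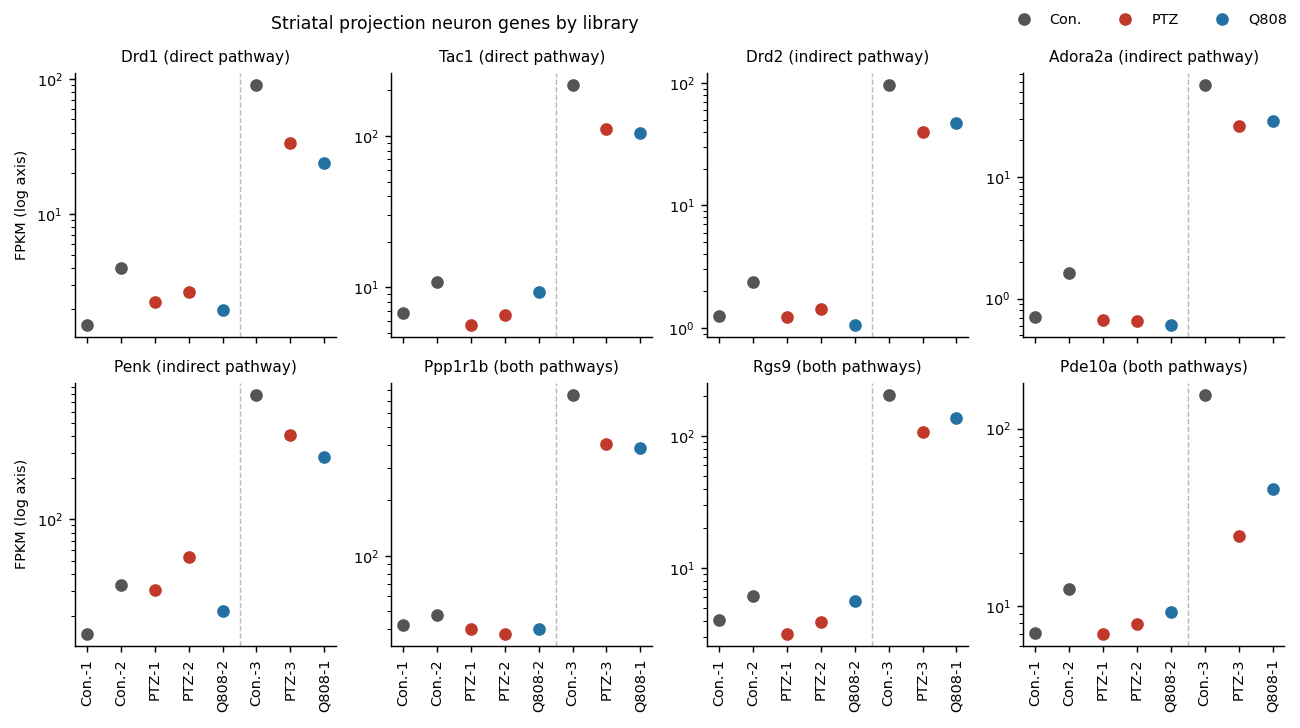
Level of each of the 8 genes in FPKM on a log axis, with 1 point per library, colours for the Con., PTZ and Q808 groups and a dashed line before the striatum-rich libraries. Con.-3, PTZ-3 and Q808-1 sit above the other 5 libraries for all 8 genes, with the least distance for Pde10a.

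The promoters of Rgs9 and Pde10a are shown because they are the genes with the widest and the narrowest gap between the sets. They were searched with the same 4 motifs. RefSeq gives 2 starts of Pde10a in this table, and no window was given for Adora2a, Penk or Ppp1r1b.
Rgs9, chr10:94770338-94770637, minus strand: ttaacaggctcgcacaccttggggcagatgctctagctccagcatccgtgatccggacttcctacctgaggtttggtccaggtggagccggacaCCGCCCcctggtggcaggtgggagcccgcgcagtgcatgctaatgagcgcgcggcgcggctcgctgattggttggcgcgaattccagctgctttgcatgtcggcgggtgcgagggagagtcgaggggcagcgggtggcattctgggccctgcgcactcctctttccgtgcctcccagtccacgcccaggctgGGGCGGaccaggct
Pde10a, start 1, chr1:54501157-54501456, minus strand: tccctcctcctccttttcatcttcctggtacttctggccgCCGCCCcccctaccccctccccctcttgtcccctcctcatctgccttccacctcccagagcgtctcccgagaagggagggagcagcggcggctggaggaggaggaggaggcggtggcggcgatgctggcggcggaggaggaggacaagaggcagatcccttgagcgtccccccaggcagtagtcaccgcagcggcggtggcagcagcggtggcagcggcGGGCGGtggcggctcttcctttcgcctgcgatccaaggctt
Pde10a, start 2, chr1:54765619-54765918, minus strand: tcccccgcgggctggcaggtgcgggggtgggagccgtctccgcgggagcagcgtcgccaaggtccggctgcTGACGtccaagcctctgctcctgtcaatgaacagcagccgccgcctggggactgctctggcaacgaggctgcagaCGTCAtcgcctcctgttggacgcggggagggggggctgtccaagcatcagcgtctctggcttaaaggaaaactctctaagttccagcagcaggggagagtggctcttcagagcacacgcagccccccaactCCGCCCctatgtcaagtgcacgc
Rgs9 held 2 GC boxes, at -156 and 37. The first start of Pde10a held 2 GC boxes as well, at -210 and 10, and the second held TGACG at -179 and -104 and a GC box at 28. The Tac1 window, not printed, held a single TGACG. None of the 6 windows held the whole CRE or TATAAA, and the FPKM do not tell which start of Pde10a was used.

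All 8 genes stood apart between the sets, with the lowest striatum-rich library above the highest of the other 5. Of all 15593 tested genes, 15.2% did so, and 0 of the 8 stood apart in the other direction, as 9.59% did. The gap is given as the log2(FPKM + 0.1) of the lowest striatum-rich library minus that of the highest other library. It was 4.10 for Rgs9, 3.99 for Drd2 and 3.93 for Adora2a, which ranked 1, 2 and 3 of all tested genes. It was 3.26 for Tac1, 3.01 for Ppp1r1b, 2.55 for Drd1 and 2.42 for Penk, at ranks 9, 12, 20 and 25, and 0.98 for Pde10a at rank 135. The median over the 8 genes was 3.14, and 0.0834% of the tested genes had a gap over 3, 0.263% over 2 and 0.84% over 1. These genes belong to the kind that set the libraries apart, so their high ranks follow in part from the choice and support nothing further.

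The ratio of the median FPKM of the 3 striatum-rich libraries to that of the other 5 was 42.6 for Adora2a, 37.5 for Drd2, 33.7 for Rgs9, 16.4 for Tac1, 15.02 for Drd1, 13.2 for Penk, 10.1 for Ppp1r1b and 5.73 for Pde10a. The genes with the highest ratios were low outside the striatum-rich set, while Ppp1r1b and Penk, the most abundant of the 8 in those 5 libraries, had some of the lowest ratios. Within the striatum-rich set Con.-3 was highest for all 8 genes. It exceeded PTZ-3 by 1.87 times for Ppp1r1b to 2.66 times for Drd1 in 7 of the genes and by 6.25 times for Pde10a, and it exceeded Q808-1 by 1.51 times for Rgs9 to 3.75 times for Drd1. PTZ-3 and Q808-1 had no common order, with 4 genes higher in PTZ-3 (Drd1, Tac1, Penk and Ppp1r1b) and 4 higher in Q808-1 (Drd2, Adora2a, Rgs9 and Pde10a). Among the other 5 libraries Con.-2 was highest for 7 of the genes. Drd1 in Con.-2 rested on 297 reads (exact 95% Poisson interval of the level 3.56 to 4.48 FPKM) and in PTZ-2, the next, on 183 reads (2.27 to 3.04 FPKM), so that these neighbours differed by more than counting error. Drd2 rested on 49, 52 and 62 reads in Con.-1, PTZ-1 and PTZ-2, with overlapping intervals of 0.927 to 1.66, 0.918 to 1.61 and 1.09 to 1.83 FPKM, and the order of these 3 libraries was within counting error.

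**Figure D2:**
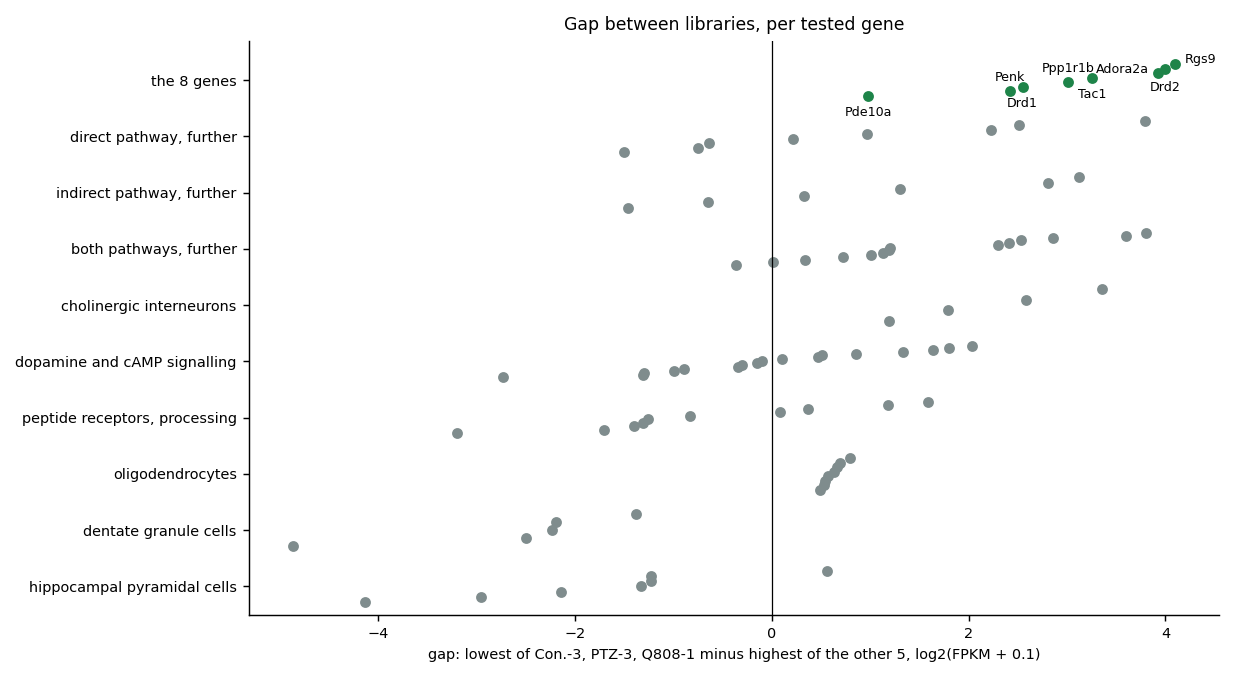
Gap in log2(FPKM + 0.1) between the lowest of Con.-3, PTZ-3 and Q808-1 and the highest of the other 5 libraries, with 1 point per gene for the 8 genes and for lists of other genes. A point to the right of 0 is a gene on which the 2 sets do not overlap, and Rgs9 at 4.10 and Pde10a at 0.98 bound the 8 genes.

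The genes of the direct pathway (Drd1 and Tac1) were compared with those of the indirect pathway (Drd2, Adora2a and Penk) inside each library. The mean log2(FPKM + 0.1) of the direct genes minus that of the indirect genes was 0.40, 0.36 and -0.22 in the Con. libraries, 0.22, 0.11 and -0.29 in the PTZ libraries, and -0.53 and 0.76 in the Q808 libraries. It was below 0 in the 3 striatum-rich libraries and above 0 in the other 5. The sign in PTZ-1 and PTZ-2 depended on the pseudocount, with -0.079 and -0.20 at a pseudocount of 1, and the median over the 8 libraries was 0.16 at 0.1 and -0.14 at 1. The sign in the 3 striatum-rich libraries and in Con.-1, Con.-2 and Q808-2 was the same at pseudocounts of 0.01, 0.1 and 1.

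The receptors and the peptides behaved differently in this comparison. Drd1 over Drd2, a ratio of levels with no pseudocount, was 1.21, 1.67 and 0.934 in the Con. libraries, 1.83, 1.85 and 0.854 in the PTZ libraries, and 0.509 and 1.85 in the Q808 libraries. The striatum-rich libraries held more Drd2 than Drd1 and the other 5 held more Drd1 than Drd2, although the interval in Con.-1, from 0.850 to 1.75 by the exact binomial method for its reads, included 1. Q808-1 had the lowest ratio, with an interval of 0.473 to 0.548 that lay below those of Con.-3 (0.896 to 0.974) and PTZ-3 (0.795 to 0.917). Tac1 over Penk was 0.457, 0.325 and 0.271 in the Con. libraries, 0.184, 0.124 and 0.271 in the PTZ libraries, and 0.372 and 0.434 in the Q808 libraries. Penk exceeded Tac1 in all 8 libraries, and the sets overlapped on this ratio. Its lowest values were those of PTZ-1 (interval 0.146 to 0.229) and PTZ-2 (0.101 to 0.151), and both intervals lay below that of PTZ-3 (0.256 to 0.287). Pde10a over Rgs9 was 1.74, 2.04 and 0.752 in the Con. libraries, 2.20, 2.03 and 0.232 in the PTZ libraries, and 0.333 and 1.64 in the Q808 libraries. Pde10a was thus above Rgs9 outside the striatum-rich set and below it inside. Within that set the interval in Con.-3 (0.728 to 0.777) lay above those in Q808-1 (0.316 to 0.352) and PTZ-3 (0.216 to 0.249).

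**Figure D3:**
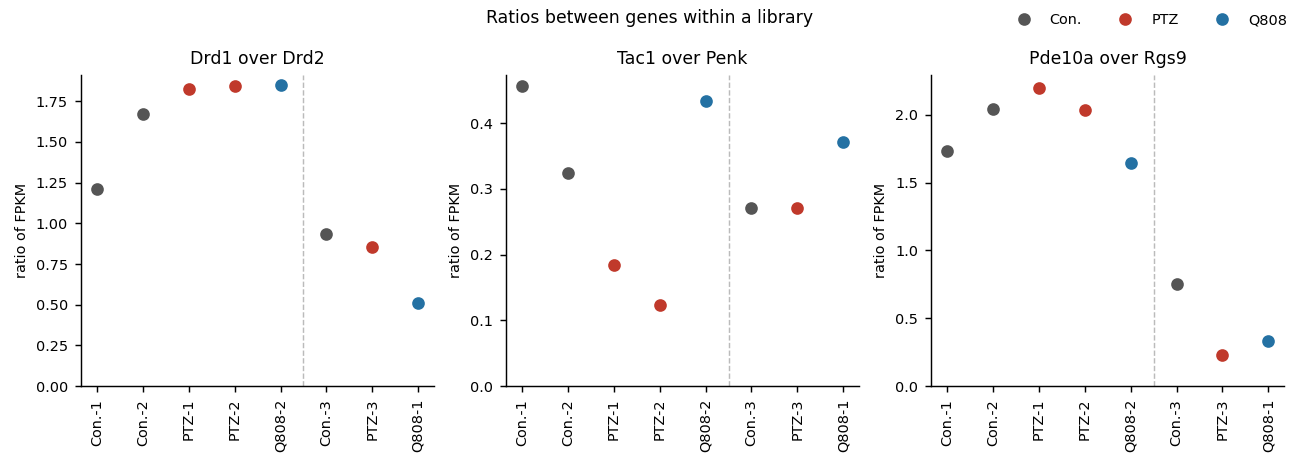
Ratios of FPKM inside each library on linear axes, with 1 point per library, colours for the groups and a dashed line before the striatum-rich libraries. Drd1 over Drd2 and Pde10a over Rgs9 are lower in Con.-3, PTZ-3 and Q808-1 than in the other 5 libraries, while on Tac1 over Penk the sets overlap.

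The treatments were compared by limma on log2(FPKM + 0.1) over all tested genes, a gene being called at an unadjusted p under 0.05 and more than 1.5-fold change. The first comparison sets kindled rats against vehicle rats, and it joins kindling with the last PTZ dose given before tissue was taken. None of the 8 genes was called between PTZ and Con., where 2.53% of the tested genes were, and 0 of the 8 had an unadjusted p under 0.05. The log2 differences were -0.48 for Drd1 (SE 1.63), -0.65 for Tac1 (SE 1.58), -0.67 for Drd2 (SE 1.89), -0.79 for Adora2a (SE 1.92), 0.25 for Penk (SE 1.58), -0.44 for Ppp1r1b (SE 1.33), -0.65 for Rgs9 (SE 1.83) and -1.10 for Pde10a (SE 1.12). Each SE but that of Pde10a was larger than 1.3 on the log2 scale, and all 8 Benjamini-Hochberg adjusted p-values were 0.999. The median of the 8 differences was -0.65, beside -0.041 over all tested genes. For 0 of the 8 genes did the PTZ and Con. libraries stand apart, and 9.15% of the tested genes did. Single libraries set the direction, since without Con.-3 all 8 genes were higher in PTZ, with a median of 1.11, and without PTZ-3 all 8 were lower, with a median of -1.88, and 0 of the 8 were called either way, where 4.1% and 7.28% of the tested genes were.

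The 2 striatum-rich libraries of this comparison carry the same replicate number, and with the number as a block 4 of the 8 genes were called lower in PTZ, beside 1.5% of the tested genes. These were Rgs9 (SE 0.16), Tac1 (SE 0.17), Adora2a (SE 0.29) and Drd2 (SE 0.27), and their log2 differences are those given above. Each was lower in 3 of 3 pairs, as were Ppp1r1b and Pde10a, which were not called. Between Con.-1 and PTZ-1 the counting intervals overlapped for all of these genes. Reads were 49 and 52 for Drd2 and 67 and 69 for Adora2a. Intervals were 5.47 to 8.19 and 4.54 to 6.95 FPKM for Tac1, and 3.41 to 4.79 and 2.62 to 3.79 FPKM for Rgs9. The share of all tested genes lower in every pair was not computed. The 4 genes were called on the unadjusted p alone, and their adjusted p-values by limma were 0.710, 0.724, 0.772 and 0.785. The labels name no animal, litter or day that a number shares. The correlation of 0.422 behind number 3 is that of the 2 striatum-rich libraries. Deviations were taken from group means that hold these libraries, so the correlations of the other numbers depend on the set as well. PTZ-1 gave 0.322 with Con.-2 against 0.212 with Con.-1. Pairing by number and pairing by set therefore cannot be told apart. In the pair of striatum-rich libraries all 8 genes were lower in PTZ-3 than in Con.-3, by log2 differences of -0.90 for Ppp1r1b to -2.64 for Pde10a, with 1 library on each side and no test. In the other 2 libraries of each group 0 of the 8 genes were called, where 9.81% of the tested genes were. The differences there were between -0.62 for Adora2a and -0.024 for Drd1 for 7 of the genes, and 0.86 for Penk (SE 0.43, adjusted p = 0.327 by limma).

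The comparison of Q808 with PTZ asks what the compound changed in kindled rats. Again 0 of the 8 genes were called, where 1.92% of the tested genes were, and 0 had an unadjusted p under 0.05. The log2 differences were 0.23 for Drd1 (SE 1.46), 0.97 for Tac1 (SE 1.54), 0.77 for Drd2 (SE 2.00), 0.87 for Adora2a (SE 2.06), -0.16 for Penk (SE 1.40), 0.56 for Ppp1r1b (SE 1.32), 1.33 for Rgs9 (SE 1.88) and 0.88 for Pde10a (SE 0.80). Their median was 0.82, beside 0.10 over all tested genes. Striatum-rich libraries made up 1 of 2 in Q808 and 1 of 3 in PTZ, and for 0 of the 8 genes did the groups stand apart, as 15.6% of the tested genes did. Without the 3 striatum-rich libraries Tac1 was called higher in Q808-2 than in PTZ-1 and PTZ-2 (log2 difference 0.61, SE 0.19, adjusted p = 0.377 by limma), in a setting that called 7.06% of the tested genes higher and that gives the lone Q808 library the spread of the PTZ libraries. Tac1 over Penk, which holds the same Tac1 values, was higher in Q808-2 (0.434) than in those 2 PTZ libraries. The ratio was 0.457 in Con.-1. Without Q808-2, Pde10a was called higher in Q808 (log2 difference 2.03, SE 0.77, adjusted p = 0.535 by limma), and that setting called 4.05% of the tested genes higher and left 1 striatum-rich library to stand for Q808.

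Between Q808 and Con., 0 of the 8 genes were called by limma and 0 had an unadjusted p under 0.05, where 3.46% of the tested genes were called. The log2 differences ran from -0.26 for Drd1 (SE 1.93) to 0.68 for Rgs9 (SE 2.12), with a median of 0.10 beside 0.04 over all tested genes. The groups stood apart for 0 of the 8 genes and for 20% of the tested genes. Without the striatum-rich libraries the differences ran from -0.73 for Adora2a to 0.17 for Rgs9, and 0 of the 8 were called, where 4.71% of the tested genes were. The 3 comparisons share their groups pairwise, and none is independent of the others.

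**Figure D4:**
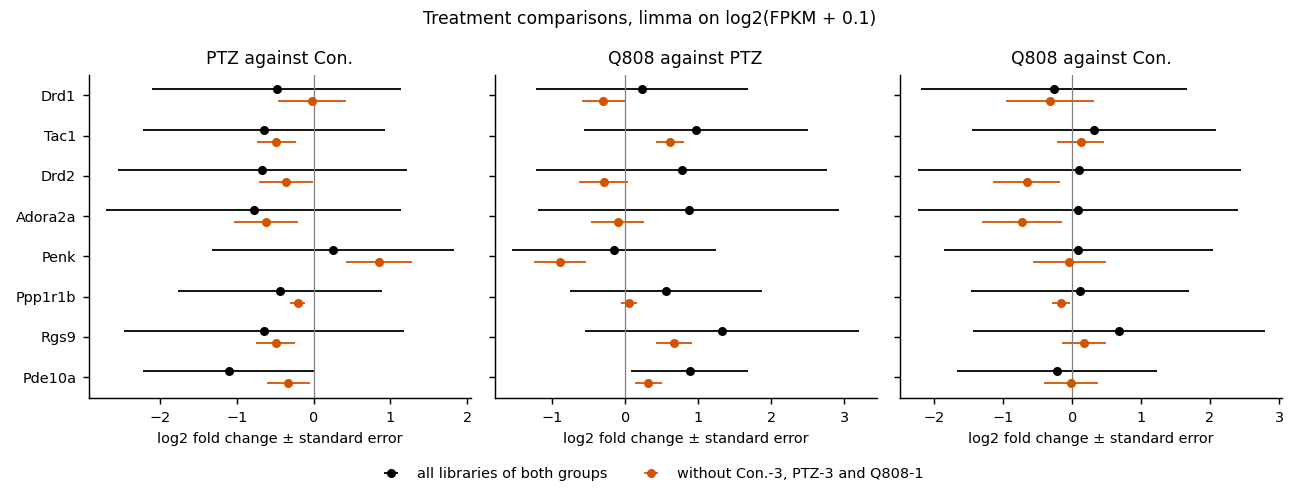
Log2 difference of each of the 8 genes in the 3 comparisons by limma, with the standard error as a bar, for all libraries and without Con.-3, PTZ-3 and Q808-1. With all libraries each bar crosses 0 except that of Pde10a in Q808 against PTZ, and the bars are shorter where the 3 libraries are left out.

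Other genes of the same neurons were taken from lists, which were chosen with earlier results of these data known. Of 14 further genes of both kinds of projection neuron, 13 stood apart and higher in the striatum-rich libraries, beside 15.2% of all tested genes. Syndig1l was at 65.1 to 135 FPKM against 2.45 to 4.58 FPKM, and Scn4b, a sodium channel subunit, was at 91.0 to 240.3 FPKM against 8.37 to 12.5 FPKM. Bcl11b, a transcription factor that is also present in hippocampal neurons, was the exception, at 14.7 to 34.6 FPKM against 9.84 to 19.0 FPKM. It was also the only gene of this list called between PTZ and Con., with a log2 difference of -0.85 (SE 0.31, adjusted p = 0.999 by limma). That comparison called 2.53% of the tested genes.

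Of 8 further direct-pathway genes, 5 stood apart and higher. Among all tested genes 15.2% stood apart and higher and 9.59% lower. Isl1, a transcription factor of direct-pathway and cholinergic neurons, was at 4.03 to 6.08 FPKM in the striatum-rich libraries and at 0 to 0.199 FPKM in the other 5, and Foxp2 was at 3.12 to 7.53 FPKM against 0.216 to 0.464 FPKM. Pdyn, the precursor of the dynorphins in direct-pathway neurons and also in dentate granule cells, overlapped between the sets. It was at 34.95, 37.3 and 71.4 FPKM in the Con. libraries, at 32.6, 60.5 and 51.8 FPKM in the PTZ libraries, and at 21.3 and 22.9 FPKM in the Q808 libraries. Both Q808 libraries lay below all others. In either direction, 15.6% of the tested genes did not overlap between Q808 and PTZ, and 20% did not between Q808 and Con. Pdyn was called lower in Q808 than in PTZ (log2 difference -1.08, SE 0.28, adjusted p = 0.952 by limma) and than in Con. (-1.03, SE 0.34, adjusted p = 0.901). These comparisons called 1.92% and 3.46% of the tested genes. Of 6 further indirect-pathway genes, 4 stood apart and higher, among them the receptors Gpr6 at 12.5 to 48.0 FPKM against 0.594 to 1.35 FPKM and Gpr52 at 8.05 to 26.1 FPKM against 0.389 to 1.07 FPKM. Plxdc1 was lower in the striatum-rich libraries and Grik3 overlapped.

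Of 18 genes of dopamine receptor and cyclic AMP signalling, 17 were tested. Of these, 8 stood apart and higher in the striatum-rich libraries and 3 lower, beside 15.2% and 9.59% of all tested genes. Those that couple dopamine receptors to cyclic AMP in the striatum were high. Gng7, a G protein gamma subunit, was at 187 to 268 FPKM against 34.0 to 45.6 FPKM, Adcy5, the main striatal adenylyl cyclase, was at 49.5 to 132 FPKM against 10.5 to 14.2 FPKM, and Gnal, the alpha subunit Golf, was at 62.6 to 169 FPKM against 17.5 to 24.7 FPKM. Their counterparts moved the other way: Gnas, which encodes the alpha subunit Gs, was at 68.7 to 146 FPKM against 161 to 170 FPKM, and Drd5, the other receptor of the D1 class, was at 0.340 to 0.595 FPKM against 1.08 to 2.83 FPKM. The catalytic subunit Prkaca was the third lower gene. Over the 3 treatment comparisons 1 call was made among the 17 genes, which is no more than the shares of 1.92% to 3.46% called among all tested genes would give. It was Ppp3ca, a catalytic subunit of the phosphatase calcineurin, called lower in Q808 than in Con. (log2 difference -0.68, SE 0.21, adjusted p = 0.901 by limma).

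Of 10 genes of neuropeptide receptors and processing, 4 stood apart and higher and 2 lower, beside 15.2% and 9.59% of all tested genes. The kappa opioid receptor Oprk1 was at 1.76 to 6.07 FPKM against 0.234 to 0.519 FPKM, and Mme, the peptidase that degrades enkephalins, was at 2.06 to 6.77 FPKM against 0.353 to 0.854 FPKM. Pcsk1, a protease that cuts Penk and other precursors, was lower, at 2.38 to 4.499 FPKM against 6.43 to 22.6 FPKM, and its highest level stood in PTZ-2, where Penk was the highest of the 5 libraries outside the striatum-rich set. Pam, which amidates substance P and other peptides, was called lower in Q808 than in PTZ (log2 difference -0.90, SE 0.33, adjusted p = 0.952 by limma). No other of the 10 genes was called there, where 1.92% of the tested genes were.

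Markers of other cells also differed between the sets. Beside the counts below, 15.2% of all tested genes were higher without overlap in the striatum-rich libraries and 9.59% lower. All 4 genes of cholinergic interneurons, the large interneurons of the striatum and also the neurons of the basal forebrain, stood apart and higher, with a summed level of 7.45 to 17.9 FPKM against 0.823 to 1.63 FPKM. Lhx8 was at 1.07 to 1.63 FPKM in the striatum-rich libraries and listed at 0 in 4 of the other 5. All 8 oligodendrocyte genes were higher, with a sum of 6963 to 13758 FPKM against 2681 to 4463 FPKM. Of the 7 tested pyramidal cell genes 5 were lower and 1 higher, with a sum of 69.1 to 98.8 FPKM against 177 to 267 FPKM, and of the 5 tested dentate granule cell genes 3 were lower, with a sum of 19.9 to 24.96 FPKM against 81.3 to 129 FPKM. The level of these hippocampal genes in the striatum-rich libraries was not 0, and Prox1, a defining transcription factor of dentate granule cells, was at 2.84 to 4.04 FPKM there. Of the 5 thalamic genes 3 were higher and 1 lower, and of the 5 cortical genes 1 was higher and 1 lower. None of the 4 astrocyte genes, 3 endothelial genes, 6 choroid plexus genes or 3 tested genes of midbrain dopamine neurons stood apart, and 1 of the 4 microglial genes was higher. Choroid plexus genes, summed, lay between 91.8 and 492 FPKM in the striatum-rich libraries and between 277 and 6437 FPKM in the other 5. Of the 54 tested genes of these cells, 4 were called in PTZ against Con. (Th 1.96, Cux2 1.33, Pecam1 0.63 and Plk5 -1.24 as log2 differences), 1 in Q808 against PTZ (Plk5 0.96) and 4 in Q808 against Con. (Cux2 0.86, Aif1 0.79, Cldn5 0.65 and Pou3f1 -0.69), where 2.53%, 1.92% and 3.46% of all tested genes were, and nothing about these lists is read from so few calls. The part of any of these cells in the levels of the 8 genes was not tested.

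**Figure D5:**
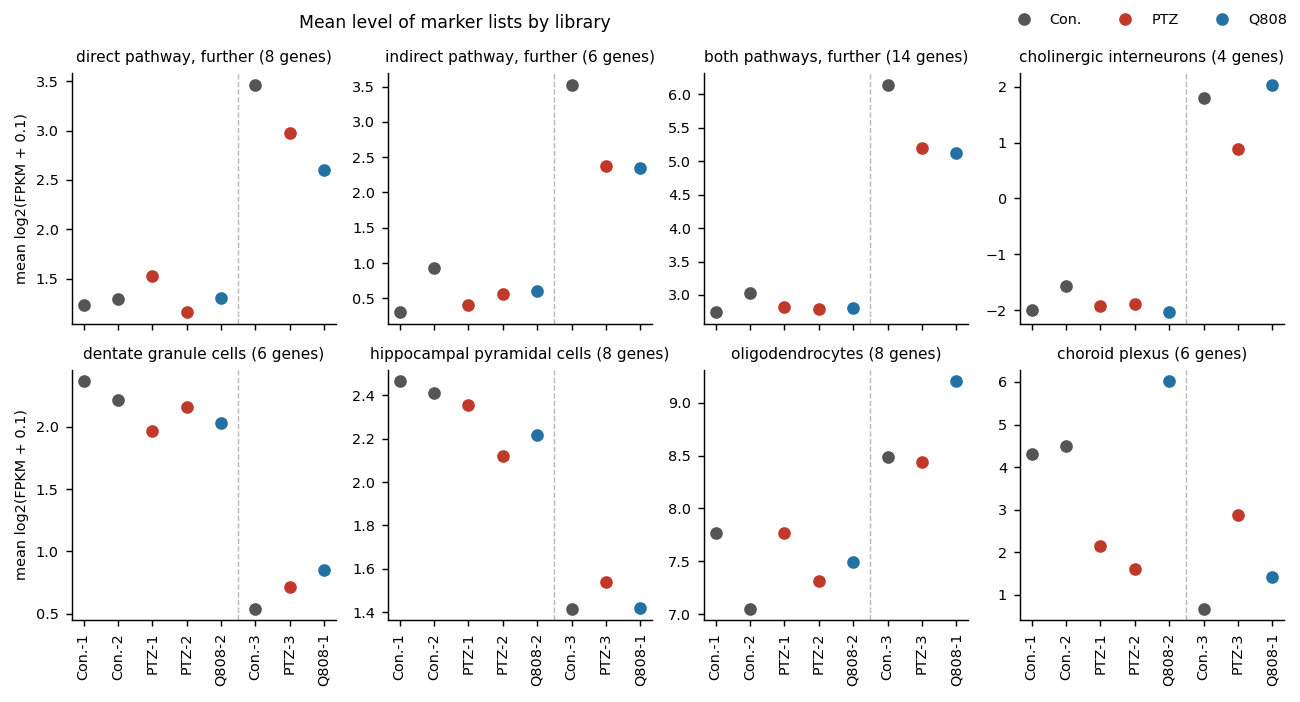
Mean log2(FPKM + 0.1) of the further direct, indirect and shared genes and of markers of other cells, with 1 point per library, colours for the groups and a dashed line before the striatum-rich libraries. The lists of striatal neurons are high and those of hippocampal neurons low in Con.-3, PTZ-3 and Q808-1, where the mean of the dentate granule cell genes is 0.54 to 0.85.

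The genes most like the 8 were found by the root mean square difference, over the 8 libraries, between a gene's centred log2(FPKM + 0.1) and the mean centred profile of the 8 genes. Outside the 8, the nearest were Scn4b (0.30), Gpr52 (0.34), Dmkn (0.34), Gpr6 (0.36), Neu2 (0.39), Tbc1d10c (0.40), Dach1 (0.41), Chat (0.44), Lhx8 (0.46) and Syndig1l (0.50). Of these 10 genes 6 were in the lists described above. The 8 genes themselves lay between 0.20 for Tac1 and 0.83 for Pde10a from their own mean, and the median of all tested genes was 2.08. The distance of Pde10a was larger than that of any of the 10 nearest genes.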

How the data were processed

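The 8 libraries, 1 per rat, were put into the Con., PTZ and Q808 groups by their labels. Before deposit, the authors computed FPKM per gene, and the deposited values were used as they are. The submitters' processing notes name Trimmomatic, HISAT2, Bowtie2, SAMtools, StringTie, Cufflinks, HTSeq and DESeq. Their versions and the genome build are not given in the sources used here. Read counts, on which the study ran DESeq, were not used here, so limma was run on FPKM instead.

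Genes were matched by NCBI GeneID, and 20633 of 22601 took a symbol from the RefSeq gene table of GRCr8. The 15593 genes with a mean of at least 0.1 FPKM were fitted on log2(FPKM + 0.1), each comparison on its own 2 groups, by limma 3.58.1 in R 4.3.3 with empirical Bayes and a trend. Adjusted p-values are Benjamini-Hochberg over all tested genes. A fold change on this scale understates that of low genes. Other values were computed in Python 3.11.15 (scipy 1.17.1, pandas 2.3.3 and numpy 2.4.6), and plots were drawn with matplotlib 3.10.9. The limma fit in its main setting and the recovery of depth and read numbers were tested on simulated data.

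Depth was read from the files: among genes under 0.15 FPKM the commonest ratio between 2 libraries gives their relative depth, and the depth-scaled FPKM of each of the 8 genes then stood in whole-number ratios within 3.8e-05 of a read (tolerance 0.001). The true number of reads may be a multiple of those given, and precision is set by the spread between rats.

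The 8 genes, the lists of other genes and the 3 striatum-rich libraries were chosen with earlier results of these data known. Named genes are the 8, genes of the lists, and the 10 genes nearest to the mean profile. Whether replicate numbers pair libraries was checked by correlating, across genes, deviations from the group means. Con. and PTZ libraries of the same number gave 0.212, 0.299 and 0.422, all over 0.1, and the numbers were counted as pairs there by that limit alone. Number 3 joins the 2 striatum-rich libraries, and PTZ-1 gave a higher value, 0.322, with Con.-2 than with its own number. The group means include the striatum-rich libraries, so this check cannot separate pairing by number from the set. For Q808 the values were -0.295 and 0.322 with PTZ and -0.379 and 0.527 with Con., and numbers were not counted as pairs. Alternatives were pseudocounts, filters, scalings, a common fit, no trend, the block, a term for the striatum-rich set and libraries left out.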

Additional observations from a re-analysis of the deposited data

How the results depend on the processing

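Each of the 8 genes rested on at least 43 reads in every library, while the groups hold 2 or 3 rats, of which 1 in each is striatum-rich. The gap of each of the 8 genes between the sets had the same direction under both other pseudocounts, quantile normalization and median ratio scaling, and its median lay between 3.06 and 3.14. With a pseudocount of 1 the median direct minus indirect difference became -0.14. Of the counts and summary values under the alternatives, 80 stayed close to those reported, 25 moved and 1 turned its sign. The cause was not tested, except that some alternatives fit fewer libraries or genes.

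Of all genes, 395 were called between PTZ and Con., 300 between Q808 and PTZ, and 540 between Q808 and Con., in this order below. With a pseudocount of 1 there were 219 in the first and 340 in the third, and with a mean of at least 1 FPKM 193 in the second. With the replicate number as a block there were 616, 1894 and 1076. Without the 3 striatum-rich libraries there were 1530 and 1444 in the first 2, and with a term for that set 672 and 714. Leaving out 1 library gave 249 to 1135, 132 to 1569 and 279 to 1799. Under quantile normalization the calls in Q808 against PTZ were 130 higher and 142 lower instead of 212 and 88, those in Q808 against Con. 283 and 158 instead of 479 and 61, and the median of all genes in Q808 against PTZ moved from 0.10 to 0.01.

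Of the 8 genes, the block called 4 in PTZ against Con. and 0 in the other comparisons. The term for the set, which was itself chosen from genes of this kind, called 5 in PTZ against Con. (Tac1, Drd2, Adora2a, Rgs9 and Pde10a, all lower, beside 249 of all 15593 tested genes lower) and 2 in Q808 against Con. (Drd2 and Adora2a, both lower, beside 149 of all 15593 tested genes lower). Leaving out the set called 1 in Q808 against PTZ, and leaving out single libraries 0 to 1 there and 0 in the others. Log2 differences changed sign in Q808 against PTZ without the set for Drd1 (-0.30), Drd2 (-0.30) and Adora2a (-0.11), with its term for Drd1 (-0.47), Drd2 (-0.10), Adora2a (-0.024) and Ppp1r1b (-0.044), and with the replicate block for Penk (0.95). In Q808 against Con. they did so without the set for Drd2 (-0.66), Adora2a (-0.73), Penk (-0.043) and Ppp1r1b (-0.16), with its term for Tac1 (-0.37), Drd2 (-0.77), Adora2a (-0.81), Penk (-0.59), Ppp1r1b (-0.48) and Rgs9 (-0.15), with quantile normalization for Drd2 (-0.036) and Adora2a (-0.058), and with the block for Drd1 (1.45) and Pde10a (1.12).

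Leaving out each library in turn turned the sign of every log2 difference at least once. In PTZ against Con. the ranges were, for Drd1, -1.73 to 1.22, Tac1 -2.04 to 0.90, Drd2 -2.27 to 1.23, Adora2a -2.48 to 1.08, Penk -0.91 to 1.97, Ppp1r1b -1.57 to 0.92, Rgs9 -2.28 to 1.14, Pde10a -1.98 to 0.24. In Q808 against PTZ they were, for Drd1, -1.55 to 2.00, Tac1 -0.77 to 2.70, Drd2 -1.90 to 3.45, Adora2a -1.80 to 3.54, Penk -2.01 to 1.70, Ppp1r1b -1.07 to 2.19, Rgs9 -0.96 to 3.61, Pde10a -0.26 to 2.03. In Q808 against Con. they were, for Drd1, -2.03 to 1.51, Tac1 -1.42 to 2.06, Drd2 -2.56 to 2.78, Adora2a -2.59 to 2.75, Penk -1.76 to 1.94, Ppp1r1b -1.52 to 1.75, Rgs9 -1.61 to 2.97, Pde10a -1.36 to 1.12. The extremes in PTZ against Con. came without PTZ-3 or Con.-3, or for the lowest of Penk and Pde10a without Con.-1, and those in the other comparisons came without Q808-1 or Q808-2, apart from the highest of Pde10a against Con., which came without Con.-3.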

Other observations

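Some genes of the projection neuron lists differed between the 2 PTZ libraries and the other 3 among the 5 libraries outside the striatum-rich set, and they were chosen after their values were seen. Arpp21, which encodes a phosphoprotein of the cyclic AMP pathway, was at 27.2 and 44.6 FPKM in PTZ-1 and PTZ-2 and at 8.10 to 14.0 FPKM in Con.-1, Con.-2 and Q808-2. Meis2, a transcription factor, was at 14.0 and 18.0 FPKM against 9.04 to 10.8 FPKM. Dclk3, a kinase, had the opposite order, at 2.22 and 1.40 FPKM against 3.67 to 6.03 FPKM. Penk was at 30.8 and 52.9 FPKM in these PTZ libraries, with Con.-2 at 33.6 FPKM between them. These values rest on 2 PTZ rats. How many of all tested genes set these 2 PTZ libraries apart from the other 3 was not counted. Without the striatum-rich libraries, limma called 9.81% of the tested genes in PTZ against Con., so differences between these PTZ and Con. libraries were common. That share is another measure, does not involve Q808-2, and does not stand for the one not counted. Calls of Arpp21, Meis2 and Dclk3 in that setting are not given here. In PTZ against Con. with all libraries, limma called none of these 4 genes, with adjusted p-values of 0.999, and Penk was not called without the striatum-rich libraries either.

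Among the 20 tested genes with the widest gap between the sets, 6 were of the 8 genes and 8 more were in the lists. The other 6, chosen after their values were seen, were Tnni3, Neu2, Dmkn, Defb25, Defb41 and Krt71.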
